A study of Mus musculus with 8 samples.

Results

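The data described here are the 2 arrays of total input RNA from mouse testis at postnatal day 14, out of 8 arrays in the series. They were chosen by their titles, which name total RNA, replicates 1 and 2, and no precipitate was used. Both come from male mice of strain C57BL/6 129SV mixed. The labels give the tissue as testes and name the cells as juvenile testicular germ cells with a Dazl-GFP-V5 fusion. The other 6 arrays hold RNA precipitated from such testes with normal IgG, anti-V5 or anti-GFP, for which the input served as a control. The labels do not say how the fusion is driven, nor whether the 2 inputs are separate animals, cultures or extracts of the same testes, so the spread between them may be technical. The free-text description of input replicate 2 says RNA-IP, against its title, source and antibody field, while that of V5 replicate 1 says total RNA. The title was followed, and values are given for each array so that replicate 1 can be read on its own.

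At this age the first wave of spermatogenesis is under way. Spermatogonial stem cells give rise to differentiating spermatogonia, which depend on the Kit receptor and switch on Stra8 in response to retinoic acid as they enter meiosis. The most advanced germ cells then pair their chromosomes along the synaptonemal complex in meiotic prophase, and haploid spermatids, which pack DNA with protamines, come later. Sertoli cells nurse the germ cells inside the tubule, peritubular myoid cells wrap it, and Leydig cells between the tubules make androgen.

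Each array carries 43379 non-control spots for 41174 probes, oligonucleotides read in 1 colour. The level of a gene is the log2 of its processed signal minus the log2 75th percentile of that array, so a level of 0 is a signal of 1029.6 on replicate 1 and 984.6 on replicate 2. A gene is represented by its brightest probe, and levels are given as mean ± SD over the 2 arrays (n = 2). Probes differ in how well they bind, so the order of signals is an order of probe brightness and not of molecules. Over genes with more than 1 probe, the probes of a gene spanned a median of 3.11 log2 units. Not every lower probe is printed below. A gene was counted as detected when its probe was flagged well above background on both arrays. With a single group of 2 arrays there is no contrast to test, and no p-value is given. The number of arrays limits the precision. Both arrays were on 1 slide, per the file headers.

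Of 19505 genes with a RefSeq name, 14585 (74.8%) were detected, 597 passed on 1 array only and 4323 on neither. On replicate 1 alone 14861 genes passed, and on replicate 2 alone 14915. The 8165 other names on the array, mostly clones and predicted transcripts, were detected less often, 2321 of them or 28.4%. The median level was -1.17 over all RefSeq-named genes and 0.23 over the detected ones. The dimmest probe flagged well above background had a signal of 25.1 on replicate 1 and 24.4 on replicate 2, a level of -5.36 and -5.34. The brightest had 409746 and 405743, and no spot was saturated.

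The label of the cells was checked against marker genes. All 6 genes taken as markers of germ cells and Sertoli cells were detected on both arrays, as were 74.8% of all genes. Ddx4, the RNA helicase found in germ cells of all stages, had signals of 21218 and 19228 (level 4.33 ± 0.055). Dazl, the germ cell RNA-binding protein that the fusion carries, had signals of 14598 and 14799 (level 3.87 ± 0.060). The second Dazl probe lay at 2.22. Whether these probes also bind the transcript of the fusion was not tested. Sycp3, a component of the synaptonemal complex, had signals of 4289.8 and 4405 (level 2.11 ± 0.073). Kit, the receptor of differentiating spermatogonia, had signals of 1961 and 1884 (level 0.93 ± 0.0038). Rhox5, an X-linked homeobox gene, had signals of 33079 and 32421 (level 5.02 ± 0.025, rank 450). Inhbb, the inhibin beta B subunit, had signals of 17257 and 16687 (level 4.07 ± 0.011). The second Inhbb probe lay at -2.25. The widest gap between the arrays was that of Sycp3, 0.10 log2 units. The RNA held transcripts known from Sertoli cells beside those of germ cells, while the cell type label names germ cells alone. In bulk RNA, fewer cells of a type and less RNA per cell cannot be told apart.

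**Figure D1:**
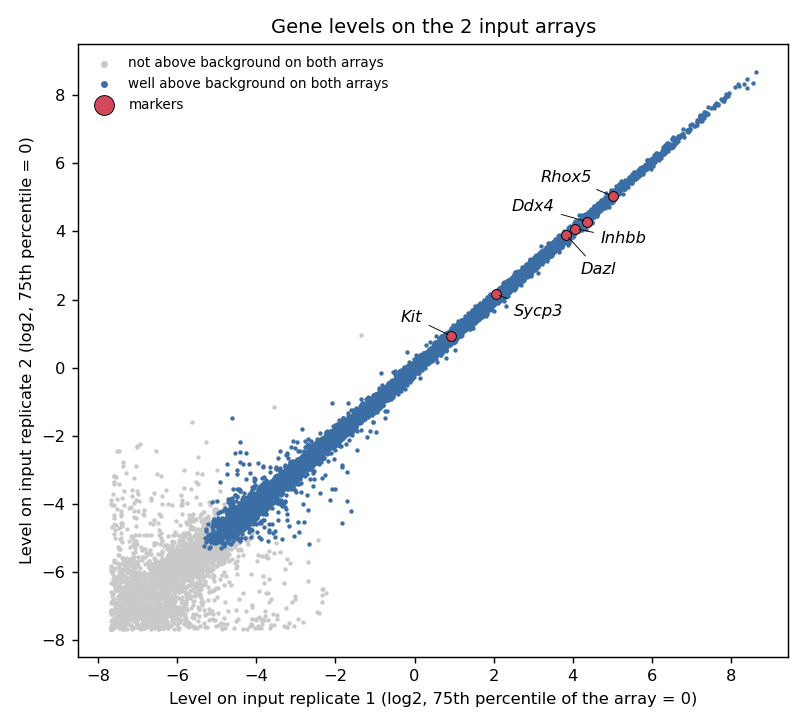
Level of each RefSeq-named gene on input replicate 1 (x axis) against input replicate 2 (y axis), both in log2 units with the 75th percentile of the array at 0. Blue points are the 14585 genes detected on both arrays, grey points the rest, and red points the 6 markers, which lie on the diagonal between 0.93 and 5.02. Points leave the diagonal only at low levels.

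The arrays were close to each other. Pearson's correlation over the 14585 detected genes was 0.998, a description across genes, which are not independent replicates. The median absolute difference was 0.071 log2 units and 95% of detected genes differed by under 0.27. The signed median was 0.020 in favour of replicate 2. Of the 100 brightest genes on each array 97 were shared, and of the 1000 brightest 974. A set of 245 probes was spotted 10 times on each array, and those above background had a median SD between spots of 0.072 on replicate 1 and 0.067 on replicate 2. The median difference between arrays was 0.057 for the 171 detected probes with repeated spots and 0.077 for the 24521 with 1 spot.

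To show what the gene starts of these groups look like, the 250 bases upstream are printed for 5 germ cell genes that span the range of CG content, from RefSeq on build GRCm38.p6. They run 5′ to 3′ on the strand of the gene, in lower case with each CG dinucleotide in capitals. Ddx4 (chr13:112652311-112652560, minus strand) has 31 of them and Dazl (chr17:50293621-50293870, minus strand) has 20. Sycp3 (chr10:88459337-88459586, plus strand) has 12 and Stra8 (chr6:34920698-34920947, plus strand) has 5. Prm1 (chr16:10796824-10797073, minus strand), which encodes protamine 1 of the spermatid nucleus, has 0.
Ddx4: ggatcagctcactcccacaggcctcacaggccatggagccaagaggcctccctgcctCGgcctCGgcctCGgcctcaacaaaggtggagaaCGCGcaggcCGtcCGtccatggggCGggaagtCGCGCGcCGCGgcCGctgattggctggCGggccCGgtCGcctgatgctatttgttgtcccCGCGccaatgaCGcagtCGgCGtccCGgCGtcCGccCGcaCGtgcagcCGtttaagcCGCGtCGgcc
Dazl: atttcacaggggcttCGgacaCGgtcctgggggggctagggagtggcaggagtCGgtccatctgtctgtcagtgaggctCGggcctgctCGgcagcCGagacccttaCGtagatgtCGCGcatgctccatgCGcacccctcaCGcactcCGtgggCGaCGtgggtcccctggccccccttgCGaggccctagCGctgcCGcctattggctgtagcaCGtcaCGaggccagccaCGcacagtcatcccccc
Sycp3: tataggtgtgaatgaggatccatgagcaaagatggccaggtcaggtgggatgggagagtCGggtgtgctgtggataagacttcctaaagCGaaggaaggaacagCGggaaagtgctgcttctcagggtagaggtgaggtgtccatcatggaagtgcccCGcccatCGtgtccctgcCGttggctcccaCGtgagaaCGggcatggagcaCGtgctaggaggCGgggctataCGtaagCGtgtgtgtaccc
Stra8: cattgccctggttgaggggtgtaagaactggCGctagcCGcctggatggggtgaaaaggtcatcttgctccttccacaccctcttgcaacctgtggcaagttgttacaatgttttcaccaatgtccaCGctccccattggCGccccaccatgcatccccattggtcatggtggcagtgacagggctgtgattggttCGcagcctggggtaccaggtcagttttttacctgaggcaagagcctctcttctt
Prm1: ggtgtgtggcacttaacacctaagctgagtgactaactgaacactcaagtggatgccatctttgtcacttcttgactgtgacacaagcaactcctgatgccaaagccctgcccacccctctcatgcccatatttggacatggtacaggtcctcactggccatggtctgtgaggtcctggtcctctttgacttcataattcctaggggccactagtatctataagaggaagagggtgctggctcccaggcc

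Genes listed for germ cells in general had a high median, but single members ran from -3.95 to 7.28. All 16 measured were detected, against 74.8% of all genes, and 7 were in the 10% of genes with the highest level, which begins at 3.22. Their median level was 2.76. Tex101, a surface glycoprotein of germ cells, had signals of 158343 and 154289 (level 7.28 ± 0.019, rank 44). Mael had signals of 40709.8 and 41387 (5.35 ± 0.062) and Tdrd1 had 23972 and 22655 (4.53 ± 0.012). Both proteins belong to the nuage, where piRNAs act against transposons. The second Tdrd1 probe lay at -0.36 on replicate 1 and -0.40 on replicate 2. The piRNA helicase Tdrd9 lay at 2.88 ± 0.10 and the PIWI protein Piwil2 at 2.64 ± 0.044. Nanos3 had signals of 179.7 and 189.8 (-2.45 ± 0.10) and Dppa3 had 68.5 and 61.6 (-3.95 ± 0.063). Both are known from primordial germ cells, as is Dnd1, which lay at 1.77 ± 0.12. Rnf17, a tudor protein, was at -1.61 ± 0.19. The median signed difference between the arrays over the 16 genes was 0.011 in favour of replicate 2, against 0.020 over all detected genes.

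Genes of undifferentiated spermatogonia had low signals. Of 19 measured genes 14 were detected, 73.7% against 74.8% of all genes, and none lay in the top 10%. The median level was -3.12. Id4, an inhibitor of differentiation used to mark stem cells, had signals of 7215 and 7011 (level 2.82 ± 0.016), and Foxo1, a forkhead factor that stem cells need, had 4434 and 4077 (level 2.08 ± 0.040). By their brightest probes Id4 and Foxo1 were the only members above a level of 0. The second Id4 probe lay at -0.75 on replicate 1 and -0.63 on replicate 2. That of Foxo1 lay at 1.88 and 1.83. Sall4 lay at -0.26 ± 0.043 and the RNA-binding protein Lin28a at -1.21 ± 0.033. The other detected members lay between -4.50 and -2.61. Etv5, a target of the niche factor GDNF, had signals of 127 and 146 (level -2.89 ± 0.18), and Pou5f1, the pluripotency factor, had 125 and 123 (level -3.03 ± 0.028). Gfra1, the GDNF co-receptor with 1 of 2 probes passing, had signals of 51 and 38.7 (level -4.50 ± 0.24). Nanos2, Eomes, Ret and Upp1 were not well above background on either array, and Pax7 passed on 1 of them. Id4 and Foxo1 are also known from other cell types, and which cells gave their signal was not tested.

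Genes listed for differentiating spermatogonia were brighter. Of 12 genes 11 were detected (91.7% against 74.8% of all genes), 4 in the top 10%, with a median of 1.90. Stra8, the retinoic acid response gene, had signals of 78852 and 74555 (level 6.25 ± 0.012, rank 139). Uchl1, a ubiquitin hydrolase of spermatogonia that neurons also express, had signals of 74644 and 71049 (level 6.18 ± 0.0047, rank 150). The second Uchl1 probe lay at 2.64 on replicate 1 and 2.74 on replicate 2. Uchl1 is not a gene of differentiating spermatogonia alone, and which cells gave the signals of this list was not tested. Rhox13, an X-linked homeobox gene, had signals of 11834 and 11872 (level 3.56 ± 0.049), and Ccnd2, the cell cycle gene cyclin D2, had 9968 and 9622 (level 3.28 ± 0.0096). The other members lay lower. Meioc, which keeps cells in the meiotic programme, lay at 2.32 ± 0.045 and Sohlh2, a helix-loop-helix factor, at 1.49 ± 0.046. Dmrt1, which restrains entry into meiosis and was the lowest of the detected members, had signals of 1326 and 1242 (level 0.35 ± 0.021). Prdm9, the methyltransferase that places meiotic recombination sites, was not well above background on either array with its single probe.

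Genes of early meiotic prophase were all detected, against 74.8% of all genes. The 24 measured had a median level of 1.48 and 7 lay in the top 10%. Smc1b, a meiotic cohesin, had signals of 34933 and 35229 (level 5.12 ± 0.054). Syce1 had signals of 25865 and 26367 (4.70 ± 0.065) and Syce2 had 22011 and 21147 (4.42 ± 0.0048). Both help to build the central element, as does Syce3, which lay at 2.80 ± 0.030. The cohesins Rec8 and Stag3 were at 3.81 ± 0.010 and 3.34 ± 0.027. Of the lateral and transverse parts of the complex, Sycp1 lay at 2.69 ± 0.072, Sycp3 at 2.11 ± 0.073 and Sycp2 at 0.94 ± 0.096. Meiob, which binds single-stranded DNA, was at 3.89 ± 0.085. Dmc1, the meiotic recombinase, lay at 1.37 ± 0.087. Spo11, which makes the double-strand breaks, had signals of 1209 and 1239 (level 0.28 ± 0.070). The crossover genes Msh5, Hfm1 and Msh4 lay at -1.05 ± 0.016, -2.24 ± 0.017 and -2.50 ± 0.0030. Mei4, a partner in break formation with 1 of 3 probes passing, had signals of 31 and 32.1 (level -5.00 ± 0.080). Tex11 was at -3.19 ± 0.16. The median signed difference over the 24 genes was 0.057 in favour of replicate 2, against 0.020 over all detected genes.

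Genes of pachytene spermatocytes had a median of 1.65, which was 0.052 with the median over the probes of each gene (1.34 for early meiotic prophase). Of 24 measured 23 were detected (95.8% against 74.8% of all genes) and 7 lay in the top 10%. Ldhc, the germ cell lactate dehydrogenase, had signals of 97406 and 102704 (level 6.63 ± 0.10, rank 89). Tekt1, a tektin of the axoneme, had signals of 17259 and 19677 (level 4.19 ± 0.18), and Tbpl1, a relative of the TATA-binding protein, had 16956 and 17480.5 (level 4.10 ± 0.077). The next Tbpl1 probe lay at 0.14 on replicate 1 and 0.16 on replicate 2, and its others lower. Hspa2, the chaperone of spermatocytes, lay at 4.06 ± 0.075, Clgn, an endoplasmic reticulum chaperone, at 3.79 ± 0.040 and Ybx2, which binds stored mRNA, at 3.32 ± 0.13. Piwil1, the PIWI protein of pachytene piRNAs, had signals of 4349.6 and 4078 (level 2.06 ± 0.020). Cetn1, a centrin, lay at 3.42 ± 0.10 and Adam2, a sperm surface protein, at 2.18 ± 0.12. Acr, which encodes acrosin, had signals of 718 and 711 (level -0.49 ± 0.035). Pgk2, the germ cell phosphoglycerate kinase, had signals of 417 and 484 (level -1.16 ± 0.20). Ccna1, the cyclin needed for the first meiotic division and the lowest of the detected members, had signals of 173 and 176 (level -2.53 ± 0.061). The linker histone H1f6 lay at -1.92 ± 0.015. Mybl1, the master regulator of pachytene genes, passed on replicate 2 only. The median signed difference over the 23 detected genes was 0.11 in favour of replicate 2, against 0.020 over all detected genes. Tekt1, for instance, lay at 4.07 and 4.32.

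Spermatid genes were the dimmest germ cell list. Of 23 measured 11 were detected (47.8% against 74.8% of all genes) and none reached the top 10%. On replicate 1 alone 13 passed. The median level was -4.68, against -5.36 and -5.34 for the dimmest probe well above background on each array. Tex22 had signals of 453 and 509.5 (-1.07 ± 0.17) and Spaca1 had 472 and 465 (-1.10 ± 0.031). Both are acrosome genes. Tnp1, a transition protein that replaces histones, had signals of 275 and 271 (level -1.88 ± 0.030). The protamines were above background but low. Prm1 had signals of 115 and 106 (-3.19 ± 0.038), with 2 of 3 probes passing, and Prm2 had 56.7 and 40.2 (-4.40 ± 0.30). Tnp2, a second transition protein, had signals of 96.3 and 66.5 (level -3.65 ± 0.33), and Oaz3, the antizyme of spermatids, had 45.8 and 33.9 (level -4.68 ± 0.26). Genes of the sperm tail and head, Akap4, Odf1, Smcp, Acrv1, Izumo1 and Capza3, were not well above background on either array. Cabs1, Spata3, Tssk2 and the linker histone H1f7 were not either. Catsper1 and Gapdhs passed on replicate 1 only.

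**Figure D2:**
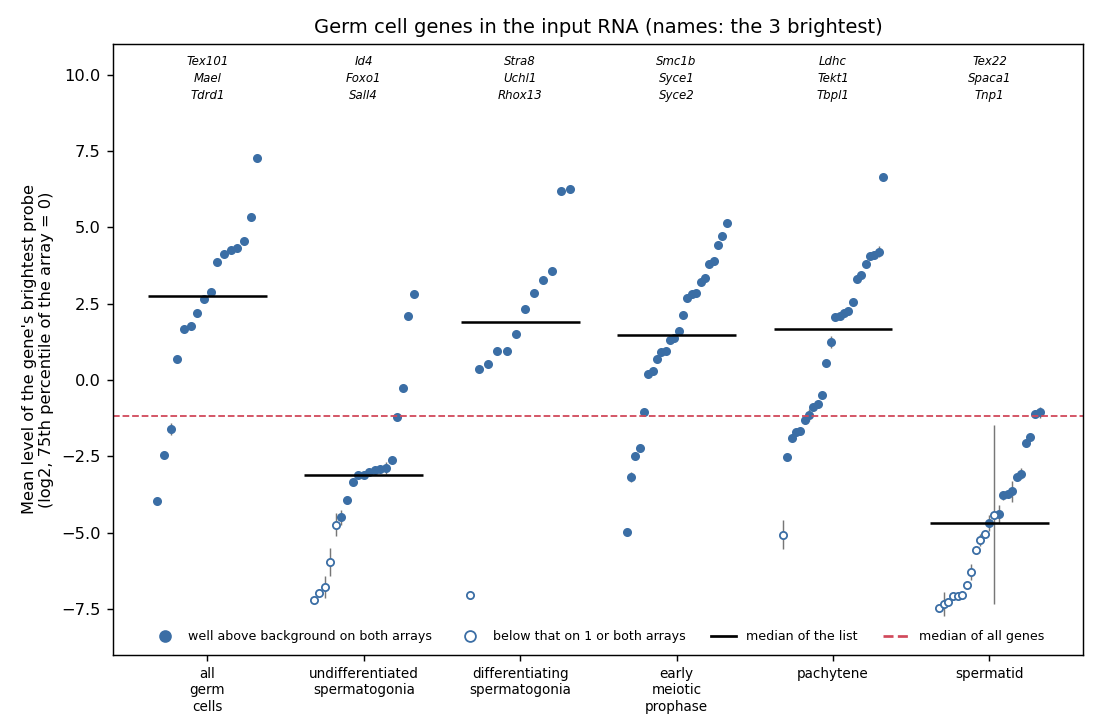
Mean level over the 2 input arrays (y axis, log2, 75th percentile at 0) of each measured gene of 6 germ cell lists (x axis), ordered within a list by level. Bars are the SD between the 2 arrays, filled points are genes detected on both arrays, black lines the medians of the lists and the dashed line the median of all genes, -1.17. The medians of the spermatogonial stem cell and spermatid lists, -3.12 and -4.68, lie below the dashed line and the other 4 above it.

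Of the Sertoli cell genes all 24 were detected, against 74.8% of all genes. Of them 11 lay in the top 10% and 3 among the 100 brightest genes, and the list median was 3.0. With the median over the probes of each gene in place of the brightest probe, the Sertoli median was 1.48, against 2.36 for the list of all germ cells. Clu, the secreted chaperone clusterin, had signals of 174914 and 171331 (level 7.43 ± 0.025, rank 31). Cst9 had signals of 145104 and 145165 (7.17 ± 0.046) and Cst12 had 101126 and 103486 (6.67 ± 0.069). Both are cystatins of Sertoli cells. The hormone genes were spread out. Inha, the inhibin alpha subunit, had signals of 24472 and 23578 (level 4.58 ± 0.0077), and Dhh, the hedgehog ligand that Sertoli cells send to Leydig and myoid cells, had 33213 and 33423 (level 5.05 ± 0.052). Amh, the anti-Müllerian hormone of immature Sertoli cells, had signals of 509 and 492 (level -1.01 ± 0.012). The lineage factors Sox9 and Wt1 lay at 2.44 ± 0.026 and 2.27 ± 0.025, and Gata1 at 1.62 ± 0.029. The follicle-stimulating hormone receptor Fshr was at -0.62 ± 0.017. Kitl, the ligand of Kit, had signals of 1061 and 989 (level 0.02 ± 0.026). Gdnf, which maintains stem cells and was the lowest member, had signals of 79.8 and 78.6 (level -3.67 ± 0.030). Gata4 lay at -2.28 ± 0.0090 with 1 of 2 probes passing.

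Leydig genes lay in the middle of the detected range. Of 15 measured 14 were detected (93.3% against 74.8% of all genes), 3 in the top 10%, with a median of 0.22. Insl3, the hormone of testis descent, had signals of 14489.7 and 13791 (level 3.81 ± 0.0048). Hsd3b1 had signals of 7205 and 6545 (2.77 ± 0.052) and Cyp17a1 had 1806 and 1658 (0.78 ± 0.042). Both are enzymes of androgen synthesis. The cholesterol side-chain cleavage enzyme Cyp11a1 lay at 0.92 ± 0.049. Fdxr and Fdx1, which pass electrons to it and are expressed in many tissues, were brighter, at 3.73 ± 0.043 and 3.29 ± 0.012. Star, which moves cholesterol into mitochondria, had signals of 699 and 578 (level -0.66 ± 0.15), and Hsd17b3, which makes testosterone in the adult, had 591 and 650.1 (level -0.70 ± 0.14). Nr5a1, the steroidogenic factor, was at -0.83 ± 0.091 with 1 of 2 probes passing, and Prlr at -1.62 ± 0.15. Lhcgr, the receptor for luteinizing hormone, was not well above background on either array. The median signed difference over the 14 detected genes was 0.058 in favour of replicate 1, against 0.020 in favour of replicate 2 over all detected genes.

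Peritubular myoid genes, all 14 detected against 74.8% of all genes, had a median of 2.30 and 6 in the top 10%. Myl9, a myosin light chain of smooth muscle, had signals of 104048 and 105252 (level 6.70 ± 0.057, rank 82). Acta2, smooth muscle actin with 4 of 5 probes passing, had signals of 55661 and 51592 (level 5.73 ± 0.031). Myh11, smooth muscle myosin, had signals of 5869 and 5438 (level 2.49 ± 0.032), and Cnn1, calponin, had 4677 and 4067 (level 2.11 ± 0.097). These genes are shared by smooth muscle of vessels. Des (desmin) lay at -1.71 ± 0.054, Synpo2 at -2.31 ± 0.030 and Cald1 (caldesmon) at -2.98 ± 0.16. The median signed difference over the 14 genes was 0.040 in favour of replicate 1, against 0.020 in favour of replicate 2 over all detected genes.

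Endothelial and blood cell genes were dimmer. The 14 endothelial genes were all detected, against 74.8% of all genes, and none lay in the top 10%. Their median was -0.96, close to the median of all genes. Robo4, a guidance receptor of vessels, had signals of 4473 and 4389 (level 2.14 ± 0.026), and Egfl7, a secreted endothelial factor, had 2641 and 2640.4 (level 1.39 ± 0.045). Cdh5, the junction cadherin, lay at -0.71 ± 0.13 and Kdr, the receptor for vascular endothelial growth factor, at -3.02 ± 0.085. Pecam1 had signals of 50.5 and 44.6 (-4.42 ± 0.090) and Tek had 45.2 and 45.1 (-4.48 ± 0.043), near the low end of the detected genes. Of 22 leukocyte genes 20 were detected (90.9% against 74.8% of all genes), with a median of -1.0. Lyz2, the macrophage lysozyme and the single member in the top 10%, had signals of 23117 and 22319.7 (level 4.50 ± 0.0098). The second Lyz2 probe lay at -2.18 on replicate 1 and -2.38 on replicate 2. Complement C1qc lay at 1.78 ± 0.067, the macrophage receptors Adgre1 at 0.10 ± 0.065 and Csf1r at -0.10 ± 0.066. Cd3e of T cells was at -3.19 ± 0.096, while Cd79a and Itgam were not well above background on either array.

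Erythroid genes were split. Of 9 measured 4 were detected (44.4% against 74.8% of all genes). Hba-a1, alpha globin, had signals of 17189.5 and 17028 (level 4.09 ± 0.036). The 4 probes that the array calls Hbb-b1, beta globin, which RefSeq places under Hbb-bt, lay between 1.47 and 5.28 as means. All 4 were well above background on both arrays, but beta globin is not counted among the 9 genes. Alas2, the erythroid enzyme of haem synthesis, lay at -0.68 ± 0.010, Slc4a1, the anion exchanger, at -3.41 ± 0.014 and the factor Klf1 at -4.54 ± 0.12. Embryonic Hbb-bh1, Epb42 and Rhag were among those not well above background on either array.

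Lists for tissues outside the testis were set beside these values. Of 15 epididymal genes 5 were detected, of 11 adipocyte genes 4, of 15 liver genes 6 and of 16 neuronal genes 6. These shares, 33.3% to 40%, lay below the 74.8% of all genes, and no member was in the top 10%. The medians of these lists lay between -6.98 and -5.22. A few members were bright. Spink2, a protease inhibitor that germ cells also express, had signals of 9026 and 9439 (level 3.20 ± 0.091), and Wfdc15a had 8107 and 8359 (3.03 ± 0.077). Both are from the epididymal list. Ahsg, the plasma protein fetuin from the liver list, had signals of 6598 and 6935 (level 2.75 ± 0.096). In that list albumin (Alb), Apoa1, Ttr and Mup1 were not well above background. Plin1, a lipid droplet protein from the adipocyte list, had signals of 2744 and 2440.4 (level 1.36 ± 0.074). In that list Adipoq and Lep were not well above background. Of 14 skeletal muscle genes 12 were detected (85.7% against 74.8% of all genes), with a median of -1.69, and 8 when every probe of a gene had to pass. That median lay above those of the undifferentiated spermatogonia and spermatid lists, -3.12 and -4.68. List medians therefore do not tell which cells or tissues were present. Actn3, the fast-fibre actinin, had signals of 1572 and 1551 (level 0.63 ± 0.032), and Tnnc2, fast troponin C, had 1125 and 1124 (level 0.16 ± 0.044). Of the 43 collagen genes 35 were detected, 81.4% against 74.8% of all genes. Col18a1, a collagen of basement membranes, was the highest, with signals of 51070.2 and 50260. Olfactory receptors, a family of 896 measured genes, were detected in 17.7%, 159 genes, and none lay in the top 10%.

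**Figure D3:**
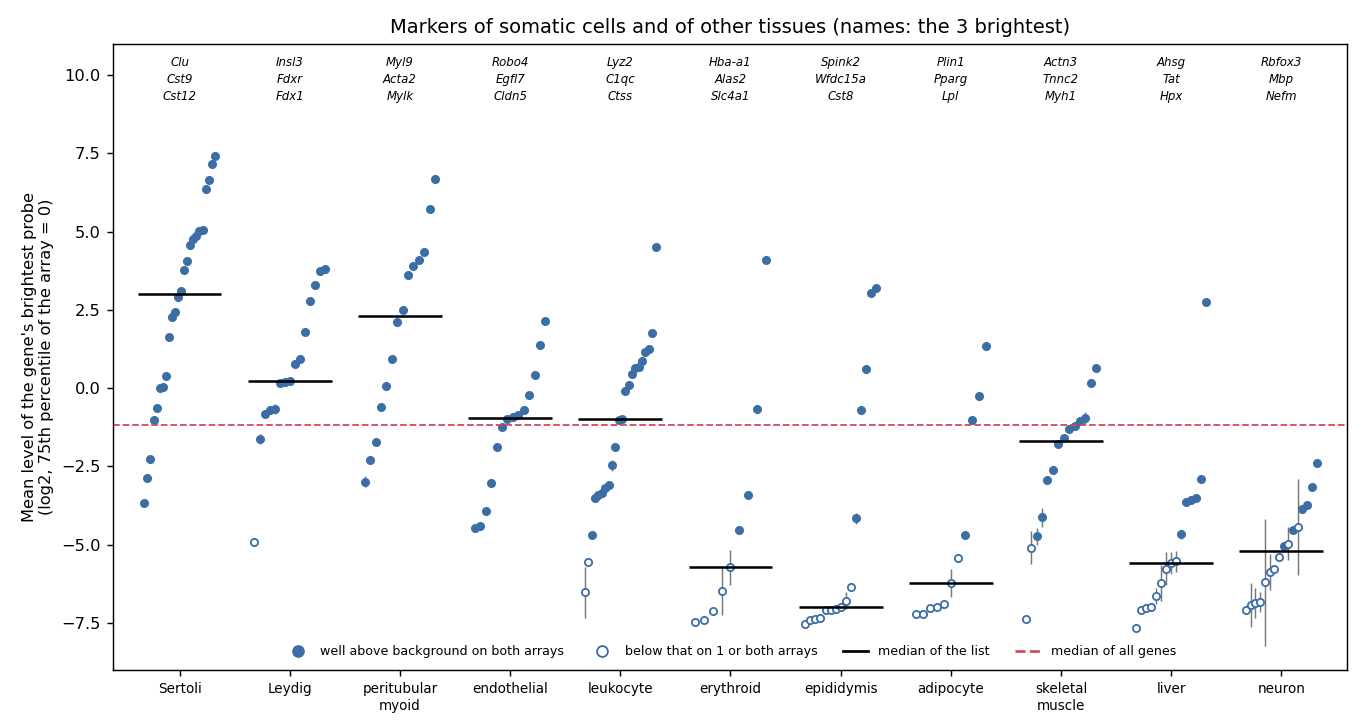
Mean level over the 2 input arrays (y axis, log2, 75th percentile at 0) of each measured gene of 6 lists of somatic testis and blood cells and 5 lists of tissues outside the testis (x axis). Bars are the SD between the 2 arrays, filled points are genes detected on both arrays, black lines the list medians and the dashed line the median of all genes. The Sertoli and myoid medians, 3.0 and 2.30, are the highest, and the epididymal one, -6.98, is the lowest.

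Cytosolic ribosomal proteins were the brightest family. Counts of detected members, here and in the families that follow, compare with 74.8% of all genes. All 82 measured were detected, 77 of them in the top 10% and 41 among the 100 brightest genes, with a median of 6.53. They held 10.99% of the summed signal of all genes on replicate 1 and 11.3% on replicate 2. Rps18, the third brightest gene, had signals of 346157 and 347882 (level 8.43 ± 0.051). Rplp1 had signals of 329996 and 314293 (8.32 ± 0.0041) and Rplp0 had 302894 and 306886 (8.24 ± 0.059). Both are stalk proteins of the large subunit. The low end held genes known for restricted expression beside ordinary members. Rpl3l, the muscle form of Rpl3, had signals of 211 and 229 (level -2.19 ± 0.13). Rpl31 and Rpl14 lay at 0.23 ± 0.14 and 0.57 ± 0.045. Ribosomal proteins have many near-identical pseudogenes, which these probes may also bind. The median signed difference over the 82 genes was 0.089 in favour of replicate 2, against 0.020 over all detected genes. Mitochondrial ribosomal proteins were lower, all 77 detected with a median of 3.03 and 32 in the top 10%. Their median signed difference was 0.078 in favour of replicate 2. They ran from Mrpl28 at 5.54 ± 0.055 and Mrpl20 at 5.52 ± 0.075 to Mrps18b at -0.93 ± 0.090.

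Other families of translation followed. Of 10 elongation factors 9 were detected, with a median of 5.27. Eef1a1, which delivers tRNA, had signals of 93648 and 103658 (level 6.61 ± 0.15), and Eef1g had 80118 and 88126 (6.38 ± 0.14). Eef1a2, a relative of Eef1a1 known from muscle and nerve, was not well above background on either array. All 53 translation initiation factors were detected, with a median of 2.94, from Eif3g at 7.22 ± 0.055 to Eif2b3 at -4.60 ± 0.18. All 37 aminoacyl-tRNA synthetases were detected, with a median of 1.80. Lars2, the mitochondrial leucyl-tRNA synthetase, had signals of 350873 and 294987 (level 8.32 ± 0.13, rank 5). The second of this family, Qars, lay at 4.60 ± 0.042, and Lars2 was measured by 1 probe. What else that probe may bind was not tested.

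Protein folding and turnover were also bright. The 11 chaperonin genes were all detected, 9 in the top 10%, with a median of 4.87. Cct7 and Cct2, subunits of the ring that folds actin and tubulin, lay at 5.61 ± 0.043 and 5.47 ± 0.012, and Cct6a at 0.96 ± 0.053. Cct6b, the form known from testis, was at 3.94 ± 0.038, above Cct6a. The 14 heat shock proteins, all detected, had a median of 4.46. Hsp90aa1, a chaperone of signalling proteins, had signals of 193996 and 195959 (level 7.60 ± 0.056, rank 26). Stress-induced Hspa1a lay lowest at 1.55 ± 0.0065. Of 39 proteasome genes 38 were detected, with a median of 4.12 and 26 in the top 10%. Psmd3 lay at 6.24 ± 0.065 and Psmb6 at 6.08 ± 0.085. The immune forms Psmb9 and Psmb8 lay at -0.12 ± 0.0088 and -0.43 ± 0.0014, and the thymus form Psmb11 passed on 1 array only.

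Energy genes were detected nearly throughout. Of 94 oxidative phosphorylation genes 91 were detected, 68 in the top 10% and 8 among the 100 brightest, with a median of 4.50. Cox6a1, a subunit of cytochrome oxidase, had signals of 211236 and 208581 (level 7.70 ± 0.033, rank 19). Cox4i1 lay at 6.90 ± 0.15 and Cox17 at 6.74 ± 0.11. Tissue-restricted forms of its subunits were at the other end. Cox6a2, known from heart and muscle, lay at -2.83 ± 0.37, and Cox4i2 and Cox8b were not well above background. Of the glycolytic genes all 15 were detected, with a median of 3.63. Aldoa had signals of 113939 and 115094 (6.83 ± 0.056) and Ldhb had 98286 and 100694 (6.63 ± 0.070), and Eno1 and Pfkp lay lowest at 0.32 ± 0.073 and -2.35 ± 0.0064. Ldhc, the germ cell enzyme given above, was as bright as Ldhb, and Ldha lay at 4.22 ± 0.034.

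All 16 actin and tubulin genes were detected, with a median of 3.17. Tuba3a, an alpha tubulin known from testis, had signals of 128928 and 138498 (level 7.05 ± 0.12, rank 56), and Tubb5 had 85681 and 92807 (6.47 ± 0.13). Actb, the common reference gene, lay at 0.65 ± 0.0094, with its 2 probes apart. Tubg2, Tubb2b and Tuba8 were low, at -3.78 ± 0.059, -4.40 ± 0.39 and -4.49 ± 0.048. Of 43 histone genes 39 were detected, 7 of them among the 100 brightest, with a median of 1.60. H2ac1, the H2A of testis, had signals of 208304 and 210681 (level 7.70 ± 0.057, rank 20). H2ac10 lay at 7.65 ± 0.080 and H2aj at 7.55 ± 0.091. H2ac6, H2bc6 and H2ac8 were not well above background, and the detected members alone spanned 12.34 log2 units. Histone genes of 1 kind are nearly identical, and the probes may not tell them apart. Of 31 hnRNP and SR proteins 30 were detected, with a median of 3.40, from Hnrnpk at 7.44 ± 0.064 and Hnrnpab at 7.33 ± 0.037 to Srsf12 at -2.18 ± 0.026. Hnrnpul2 was not well above background.

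**Figure D4:**
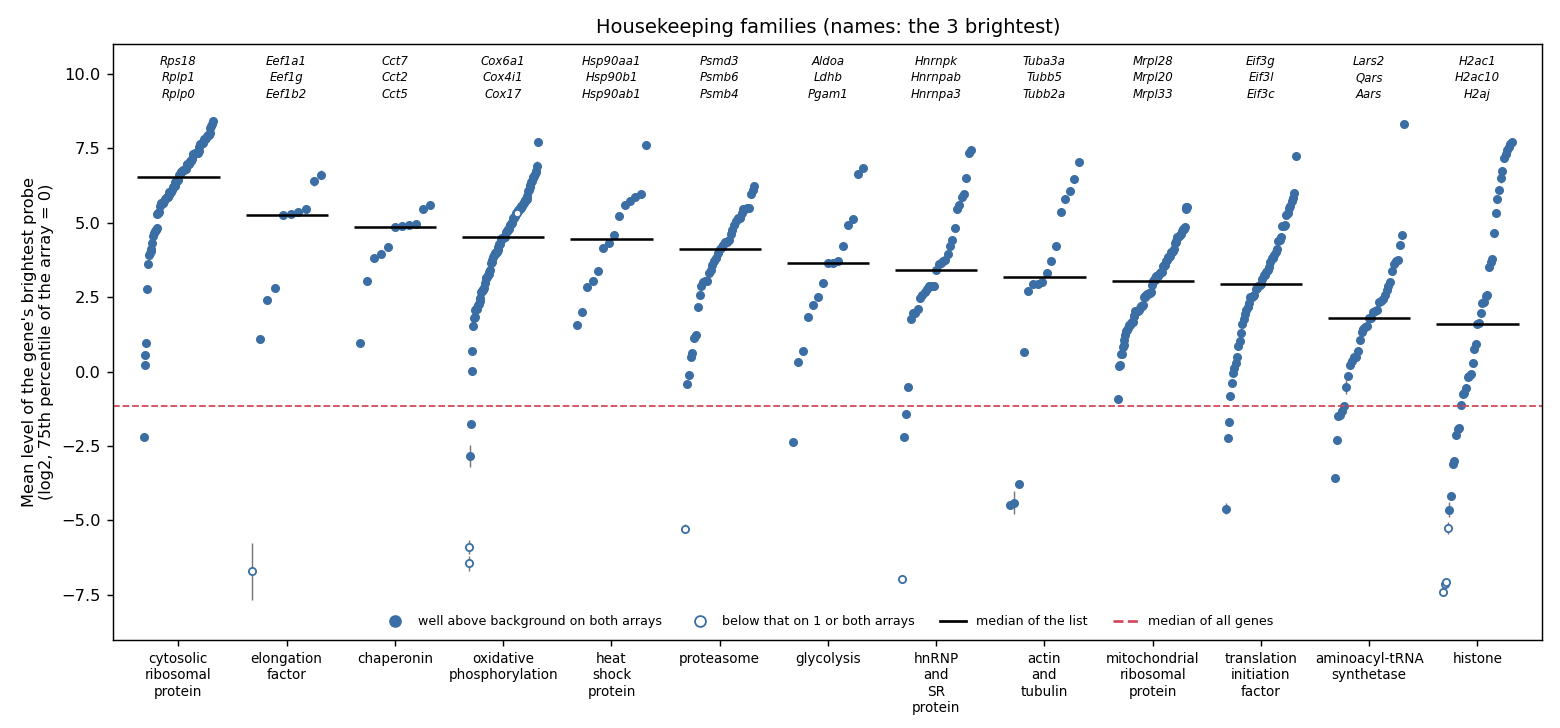
Mean level over the 2 input arrays (y axis, log2, 75th percentile at 0) of each measured gene of 13 housekeeping families (x axis). Bars are the SD between the 2 arrays, filled points are genes detected on both arrays, black lines the family medians and the dashed line the median of all genes, -1.17. All 13 family medians lie above the dashed line, from 1.60 for histones to 6.53 for cytosolic ribosomal proteins.

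Of the 33 lists, 22 had a median above that of all genes. The 30 brightest genes held 17 genes of the ribosomal protein list, among them Rps2, Rpl37a, Rps23, Rpl41, Rplp2, Rps20, Rps12, Rpl32, Rps16 and Fau. The polyubiquitin gene Ubb had a level of 8.25 ± 0.11, rank 6. Glutathione transferase Gstm1 had 7.85 ± 0.044 and the histone H3f3b 7.43 ± 0.11. The 2 brightest genes were unlike these. Ptprz1, a receptor phosphatase known from brain, had signals of 409746 and 405743 (level 8.66 ± 0.036). Only 1 of the 4 Ptprz1 probes was well above background on both arrays. Pigt, part of the enzyme that attaches GPI anchors, had signals of 389733 and 322494 (level 8.46 ± 0.15). The second Pigt probe lay at -1.85. Sin3b, a corepressor with 2 of 3 probes passing, had 7.88 ± 0.046. Which transcripts these bright probes report was not tested. Over all 8672 genes with more than 1 probe, the probes of a gene spanned a median of 3.11 log2 units, and in 51.4% of them at least 8-fold. Genes with more probes were also detected more often, 64.2% with 1 probe and 94.5% with 4 or more.

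The X chromosome is known to be silenced in pachytene spermatocytes, and the part of this in the values below was not tested. Of its 671 protein-coding genes other than olfactory receptors 510 were detected, or 76.0%, inside the range of 70.4% to 85.1% over the 19 autosomes. The median level of its detected genes was -0.19, below the range of 0.022 to 0.66 over the autosomes. On the Y chromosome 8 of 16 genes were detected, and the median level of these 8 was -1.0. Rbmy, a germ cell RNA-binding protein of the Y, had signals of 13831 and 13219 (level 3.75 ± 0.00053), and Uba1y, a ubiquitin-activating enzyme of the same chromosome, had 9698 and 9643 (level 3.26 ± 0.040). Eif2s3y, needed for spermatogonia to divide, lay at 1.30 ± 0.012 and Ddx3y at -1.50 ± 0.18. The multicopy spermatid genes Sly, Ssty1 and Ssty2 were not well above background, nor were Sry and Uty.

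The sequences printed above stand in a wider pattern of CG content, given here as a description. The motif is the dinucleotide CG, which reads the same on both strands and cannot overlap itself, and 91.7% of all promoter windows of the table hold at least 1. A window was matched for 14728 of 18434 protein-coding genes. Detected genes had a median of 15 CG in the 250 bases upstream (quartiles 8 and 22), and the others 3, also without the olfactory receptors. The top 10% by level had 17 and the lowest 25% had 3. Cytosolic ribosomal proteins had a median of 17.5 over 60 genes and the list of all germ cells 16 over 12. Spermatid genes had 2 over 18 and leukocyte genes 4 over 15. Sertoli genes were bright with few, 5.5 over 14, and so were peritubular myoid genes, 7 over 11. Dim lists with more were undifferentiated spermatogonia, 11.5 over 14, and neuronal genes, 9 over 9. Stra8, with 5, was among the brightest germ cell genes, and Ddx4, with 31, was dimmer. Of the 5 genes printed, Ddx4, Dazl, Sycp3 and Prm1 had the same order by CG content as by level, and Stra8 did not fall into it. These 5 were picked to span the range of CG content, so their order bears on no other genes.

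**Figure D5:**
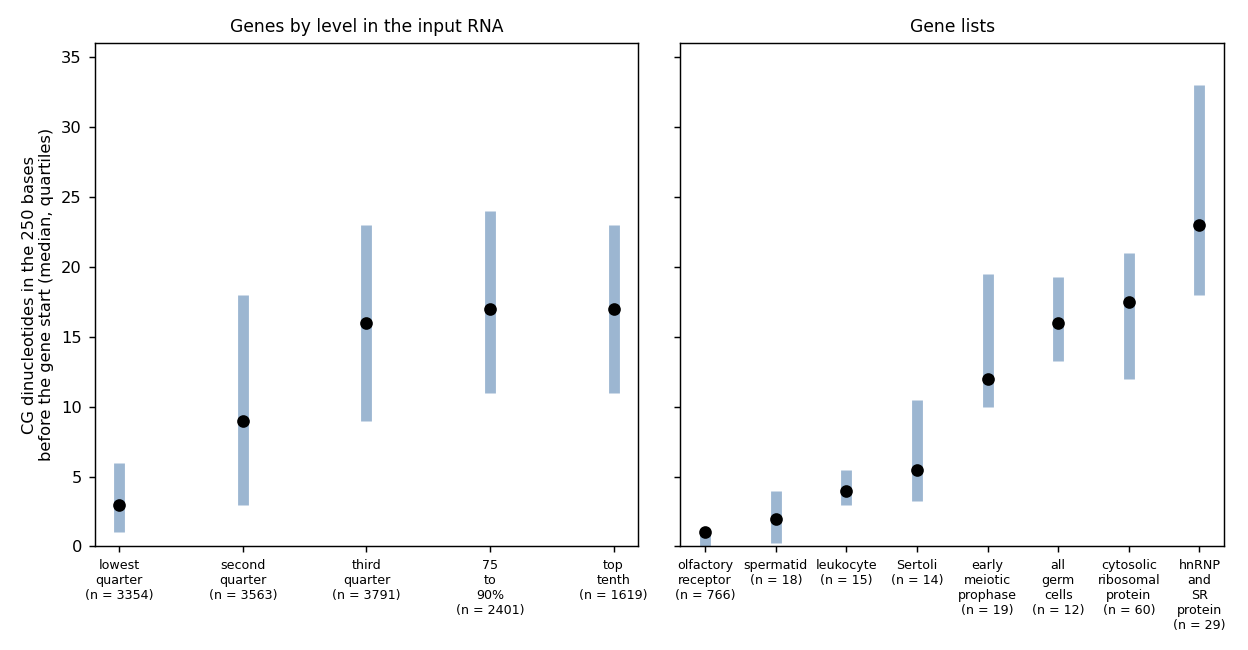
Number of CG dinucleotides in the 250 bases before the gene start (y axis), as median (point) and quartiles (bar), for genes by level in the input RNA (left, from the lowest 25% to the top 10%) and for 8 gene lists (right). The median is 3 in the lowest 25% and 17 in the top 10%, 2 for spermatid genes and 5.5 for Sertoli genes.

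Differences between the 2 arrays were found at low signal. Of the 14585 detected genes 50 (0.343%) were at least 2-fold apart, 30 higher on replicate 1 and 20 on replicate 2. All 50 lay below the median level of detected genes, 25 of them in the lowest 10% of the detected genes. The largest was Aspdh, with signals of 42.1 and 356. Adra1a had 288 and 41.7, Gjb1 338 and 53.3, and Ackr4 163 and 27.3. C6 was higher on replicate 2, with 48.4 and 218. Nfam1, Lag3, Pgpep1l, Slc18a3 and Rsad1 were the other 5 of the 10 largest. None of these 10 belongs to a germ or somatic list, and with 1 array on each side no test can be made of them.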

How the data were processed

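Cy3-labelled total RNA was hybridised to 1-colour Agilent mouse arrays. The deposited intensity values are processed signals of Agilent Feature Extraction 9.1.3.1, background-subtracted and not scaled between arrays, per the file headers. An aligner or genome build does not apply to these values.

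Control spots were left out. The log2 of the intensity of each spot was taken and the 75th percentile over all non-control spots of the array subtracted. Spots marked as outliers (23 on replicate 1 and 4 on replicate 2) were then left out and the levels of a probe's spots averaged. Probes were named through RefSeq of GRCm38.p6, 22951 by accession, 6659 by symbol and 3109 by an older symbol, and 8455 kept the name of the file. The brightest probe stands for a gene. Python 3.11.15 and pandas 2.3.3 were used, with limma 3.58.1 in R 4.3.3 for the background-correction alternative. The choice of probe and the 2-fold rule were tested on simulated data, with probes flagged on both arrays and the same noise at all levels. The simulation did not cover the counts of detected genes or the wider spread of dim genes.

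The arrays, the 33 gene lists and the markers were chosen with earlier results of these data known. Named are the 30 brightest genes, 6 markers, members of the germ cell and somatic lists, the 3 highest and 3 lowest of other families (not all are printed) and the 10 largest differences between the arrays. Collagen and outside-tissue genes were named after their values were seen. Listed genes with no probe named for them, such as Gcna, Zbtb16, Sohlh1, Gapdh and Actg1, were not analysed here. Alternatives changed the detection flag, the scaling, the background correction, the probe rule, the naming, outlier spots and the arrays used. Some genes that the rule names are not reported here.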

Additional observations from a re-analysis of the deposited data

How the results depend on the processing

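The count of detected genes, 14585, ran from 11335 when every probe of a gene had to pass to 16621 with the scanner's weaker flag, a test of positive and significant signal. With that flag 17 spermatid genes were detected in place of 11, 7 adipocyte, 10 liver and 11 neuronal genes, and 416 olfactory receptors in place of 159. When every probe had to pass, 2 neuronal and 19 collagen genes were left. The lists whose median lay above that of all genes numbered 22 under quantile normalization, normexp correction, kept outlier spots, the median over probes and either array alone. With only probes matched by accession, an alternative chosen after seeing the data, 20 did, and the endothelial and leukocyte lists crossed. The count of genes 2-fold apart, 50, was 14 with normexp correction, 137 with the median over probes and 644 without the filter on dim probes. It could not be computed with 1 array left out. Of the 100 brightest genes 88 were shared with normexp correction and 64 with the median over probes. Low signals limit the spermatid, stem cell and outside-tissue lists. No paired analysis was possible because the values come from a single group and no test.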

Other observations

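Among the 100 brightest genes 29 were in none of the lists. They included Amhr2, the receptor for anti-Müllerian hormone, Pabpc1, which binds poly(A) tails, Ybx1, a cold-shock RNA-binding protein, Stmn1, a regulator of microtubules, and Fth1, the ferritin heavy chain. These genes were picked after their values were seen.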
